A study of Homo sapiens and Mus musculus with 12 samples.

Results

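Lytic granule exocytosis is the step by which a natural killer (NK) cell delivers perforin and granzymes to a target cell, and it was examined here through 5 genes whose loss impairs killing in inherited immune disease. The genes are Unc13d, Rab27a, Stx11, Stxbp2 and Lyst in mouse and UNC13D, RAB27A, STX11, STXBP2 and LYST in human. They were chosen by symbol, not by any measured value, and all 5 were found among the 22021 genes of the mouse table and all 5 among the 18304 genes of the human table. RNA-seq counts came from NK cells sorted from spleen, in 3 wild-type (WT) and 3 knockout (KO) libraries, and from the human line NK92MI, in 3 libraries treated with BIX-01294 (BIX) and 3 treated with its solvent DMSO. The comparisons address how the loss or the inhibition of EHMT2 (G9a), an enzyme that places the repressive mark H3K9me2 on histone H3, changed NK cell transcripts.

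KO mice were Ehmt2 flox/flox; Ncr1-iCre animals. Ncr1 drives Cre in NK cells and in the few other lymphoid cells that make NKp46, so the deletion begins when that gene comes on. All mice were on a C57BL/6J background and 8 to 12 weeks old. The study uses WT for Ehmt2 flox/flox mice, so both groups carried the floxed allele, while the sample labels read Wild-type. A genotype field of the KO samples reads Ezh2-KO, whereas their titles read EHMT2-KO. Ehmt2 itself stood at 275, 284 and 285 CPM (counts scaled to library size) in WT replicates 1 to 3 and at 171, 143 and 137 CPM in KO replicates 1 to 3, a log2 fold change of -0.91 (SE 0.10, adjusted p = 0.0162), while Ezh2 changed by -0.23 (adjusted p = 0.116). NK92MI is a single lymphoma-derived NK line engineered to make its own IL-2, so its libraries are cultures of 1 line. BIX-01294 was used at 0.25 μM for 5 days in assays of these cells, and no separate dose is stated for the RNA-seq libraries. EHMT2 fell in the BIX libraries by 0.58 on the log2 scale (SE 0.08, adjusted p = 0.000101). Nothing in the labels says that libraries of a group came from separate animals or cultures, so the p-values measure the spread between these libraries, which may be technical.

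Lytic granules are secretory lysosomes. After a target is bound, they move along microtubules to the contact zone, dock at the plasma membrane and fuse with it. Rab27a is the small GTPase that holds granules at the membrane, and Munc13-4, the product of Unc13d, binds it and primes docked granules. Fusion uses SNARE proteins, among which syntaxin 11 (Stx11) sits on the plasma membrane, and Munc18-2 (Stxbp2) is the SM protein that binds and stabilises it. Lyst is a very large BEACH domain protein that limits lysosome and granule size. Loss of Unc13d, Stx11 or Stxbp2 causes familial haemophagocytic lymphohistiocytosis, loss of Rab27a causes Griscelli syndrome, and loss of Lyst causes Chediak-Higashi syndrome.

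In mouse build GRCm38, Unc13d lies on the minus strand at chr11:116062095-116077961 and Rab27a on the plus strand at chr9:73044854-73097629. Stx11 is at chr10:12938209-12964298 (minus), Stxbp2 at chr8:3630955-3643644 (plus) and Lyst at chr13:13590397-13778803 (plus).

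In human build GRCh38, UNC13D is at chr17:75827225-75844785 (minus), RAB27A at chr15:55202966-55319113 (minus) and STX11 at chr6:144150487-144191939 (plus). STXBP2 is at chr19:7636772-7647873 (plus) and LYST at chr1:235661041-235883724 (minus). Annotated exons of human STXBP2 share 1846 bases, 30.4% of their length, with another coding gene model on the same strand, so reads there may have been left out or split, and the level of STXBP2 is uncertain. The exons of RAB27A and LYST overlap other genes, none of them over more than 2.11% of their length, those of mouse Rab27a overlap a pseudogene over 3.84%, and no overlap was found for UNC13D, STX11 or the other mouse genes.

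The stretches before the annotated starts of STX11 and LYST are shown as examples. STX11 had the larger of the called changes under BIX, and LYST was 1 of the 3 genes not called. Both are RefSeq promoter windows of GRCh38.p14, 5′ to 3′ on the gene's strand, ending before the annotated exon. Capitals mark GGGCGG, the core of the GC box, in STX11 (chr6:144150267-144150486, plus) and TGACTCA, the core of an AP-1 element, in LYST (chr1:235883725-235883963, minus).
STX11: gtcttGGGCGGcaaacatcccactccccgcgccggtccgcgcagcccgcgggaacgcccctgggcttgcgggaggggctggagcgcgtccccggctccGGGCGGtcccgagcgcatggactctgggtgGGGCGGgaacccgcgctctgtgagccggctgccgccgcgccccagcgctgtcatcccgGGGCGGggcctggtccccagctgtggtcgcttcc
LYST: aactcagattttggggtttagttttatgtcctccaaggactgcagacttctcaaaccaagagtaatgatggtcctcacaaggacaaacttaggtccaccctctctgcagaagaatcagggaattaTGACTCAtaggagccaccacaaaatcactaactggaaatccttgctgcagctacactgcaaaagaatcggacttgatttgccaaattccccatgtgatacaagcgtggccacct
The STX11 stretch was 77.3% G or C with 28 CG dinucleotides and held 4 matches to GGGCGG, counted on both strands. The LYST stretch was 44.8% G or C with 2 CG dinucleotides and held 1 match to TGACTCA and none to GGGCGG. Among all 35116 RefSeq windows of the 250 bases before a start, 42.6% held GGGCGG and 4.2% held TGACTCA on either strand. LYST has 3 such windows, from its alternative starts, and the third, further downstream, was 76% G or C with 3 matches to GGGCGG. STXBP2 and RAB27A, also not called under BIX, had such windows too. Those of STXBP2 were 72% and 54.4% G or C, with 2 and 1 matches to GGGCGG. Those of RAB27A were 37.2% to 58.8% G or C, with 0 to 2 matches. No link between these sequences and the response to BIX was tested. These are matches of letters, not measured binding. Windows were listed for 4 of the 5 human genes, and UNC13D had none.

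Per kilobase of annotated exon, the WT level was highest for Stxbp2 at 56.2 ± 1.66 RPKM and Unc13d at 52.3 ± 6.32 RPKM (SD, n = 3), whose ranges overlapped. Stx11 followed at 35.6 ± 6.39 RPKM, then Rab27a at 20.2 ± 2.23 RPKM and Lyst at 7.76 ± 0.955 RPKM, and the ranges of these neighbours did not overlap. In KO libraries the leading pair changed places, with Unc13d at 65.6 ± 5.67 RPKM and Stxbp2 at 53.1 ± 1.89 RPKM. Divided by the length of the principal transcript instead, their WT ranges did not overlap, and their KO ranges did. In WT the ranges were 56.9 to 70.3 RPKM for Unc13d and 78.3 to 83.0 RPKM for Stxbp2. In KO they were 72.6 to 85.0 RPKM for Unc13d and 72.9 to 78.2 RPKM for Stxbp2.

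The line NK92MI had a different profile. STX11 stood at 30.1 ± 0.269 RPKM and RAB27A at 28.3 ± 0.665 RPKM in DMSO libraries (SD, n = 3). LYST at 5.90 ± 0.436 RPKM, STXBP2 at 5.55 ± 0.193 RPKM and UNC13D at 4.81 ± 0.0459 RPKM lay far below, and LYST and STXBP2 overlapped. The measure of length decides part of this order, since the exons of RAB27A cover 11345 bases in all and 3447 bases in its principal transcript. By the principal transcript RAB27A came first at 93.1 ± 2.19 RPKM, followed by STX11 at 31.5 ± 0.282, STXBP2 at 17.9 ± 0.621, LYST at 12.3 ± 0.907 and UNC13D at 9.19 ± 0.0877 RPKM. UNC13D was the lowest of the 5 by both measures, while Unc13d was among the highest pair in spleen NK cells. Species, cell source and table differ together here, so the levels of the tables were set side by side and not tested.

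**Figure D1:**
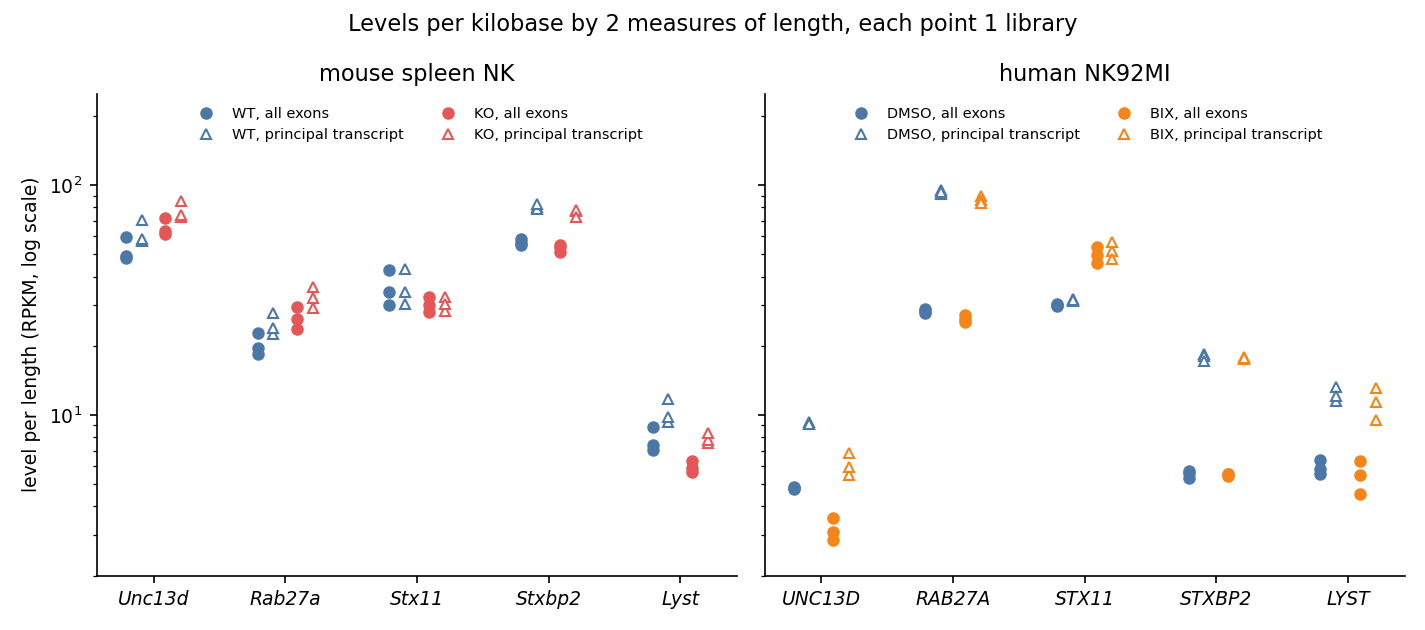
Level per kilobase (RPKM, log axis) of the 5 genes in every library, by the length of all annotated exons (filled circles) and of the principal transcript (open triangles), with mouse libraries on the left and human libraries on the right. Lyst was lowest in mouse at 7.76 RPKM in WT, and UNC13D lowest in human at 4.81 RPKM in DMSO, by exon length.

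In the KO mice, the GTPase and its effector, Rab27a and Unc13d, were counted at 1.31 and 1.25 times their WT level, Lyst at 0.77 times, and Stx11 and Stxbp2 at 0.85 and 0.94 times. None of the 5 passed the test across all genes, edgeR's quasi-likelihood test at a Benjamini-Hochberg adjusted p under 0.05 with no fold threshold. Of all 13189 genes tested, 11.9% passed, 4.44% as higher and 7.43% as lower. At an unadjusted p under 0.05 by edgeR the count was 3 of the 5 genes (Unc13d, Rab27a and Lyst), beside 4719 of the 13189 genes. By DESeq2 it was 2 at an adjusted p under 0.05, Rab27a and Lyst, beside 3087 of all genes. By limma-voom it was 0, beside 1508 of all genes. At the stricter thresholds of the study (adjusted p under 0.01, change beyond 0.5 on the log2 scale) DESeq2 called 0 of the 5 genes and 11.3% of all genes. The groups did not overlap for 4 of the 5 genes, 2 higher and 2 lower, beside 38.5% of all genes tested, 19.1% higher and 19.3% lower.

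Unc13d was counted at 226, 279 and 230 CPM in WT replicates 1 to 3 and at 288, 337 and 295 CPM in KO replicates 1 to 3. Every KO library was above every WT library, and the highest WT library lay just under the lowest KO library. This amounted to a log2 fold change of 0.33 (SE 0.11, 95% interval 0.063 to 0.59, adjusted p = 0.0871).

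Rab27a stood at 71.2, 88.0 and 76.0 CPM in the WT libraries and at 92.0, 102 and 114 CPM in the KO libraries. WT replicate 2 was the highest of its group for this gene too, and the groups did not overlap. The log2 fold change was 0.39 (SE 0.11, 95% interval 0.12 to 0.66, adjusted p = 0.0612), and DESeq2 gave an adjusted p of 0.0252.

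For Stx11, the plasma membrane syntaxin, the WT libraries held 127, 143 and 179 CPM and the KO libraries 118, 137 and 127 CPM. The groups overlapped, and WT replicate 3 stood apart from the other two. The log2 fold change was -0.23 (SE 0.13, 95% interval -0.54 to 0.074, adjusted p = 0.239), and without WT replicate 3 it was -0.089.

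Its partner Stxbp2 was the steadiest of the 5 genes, at 233, 228 and 241 CPM in WT and 223, 227 and 212 CPM in KO. All KO libraries were below all WT libraries, by a narrow margin. It changed by -0.083 on the log2 scale (SE 0.07, 95% interval -0.26 to 0.090, adjusted p = 0.452).

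Lyst was counted at 123, 129 and 154 CPM in WT and at 99.1, 103 and 110 CPM in KO. The groups did not overlap, and the log2 fold change was -0.38 (SE 0.10, 95% interval -0.62 to -0.14, adjusted p = 0.0528), and DESeq2 gave an adjusted p of 0.0120. For each of the 4 genes whose groups did not overlap, an exact two-sided permutation test over the 6 libraries gave p = 0.1, the smallest that 3 against 3 allows.

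**Figure D2:**
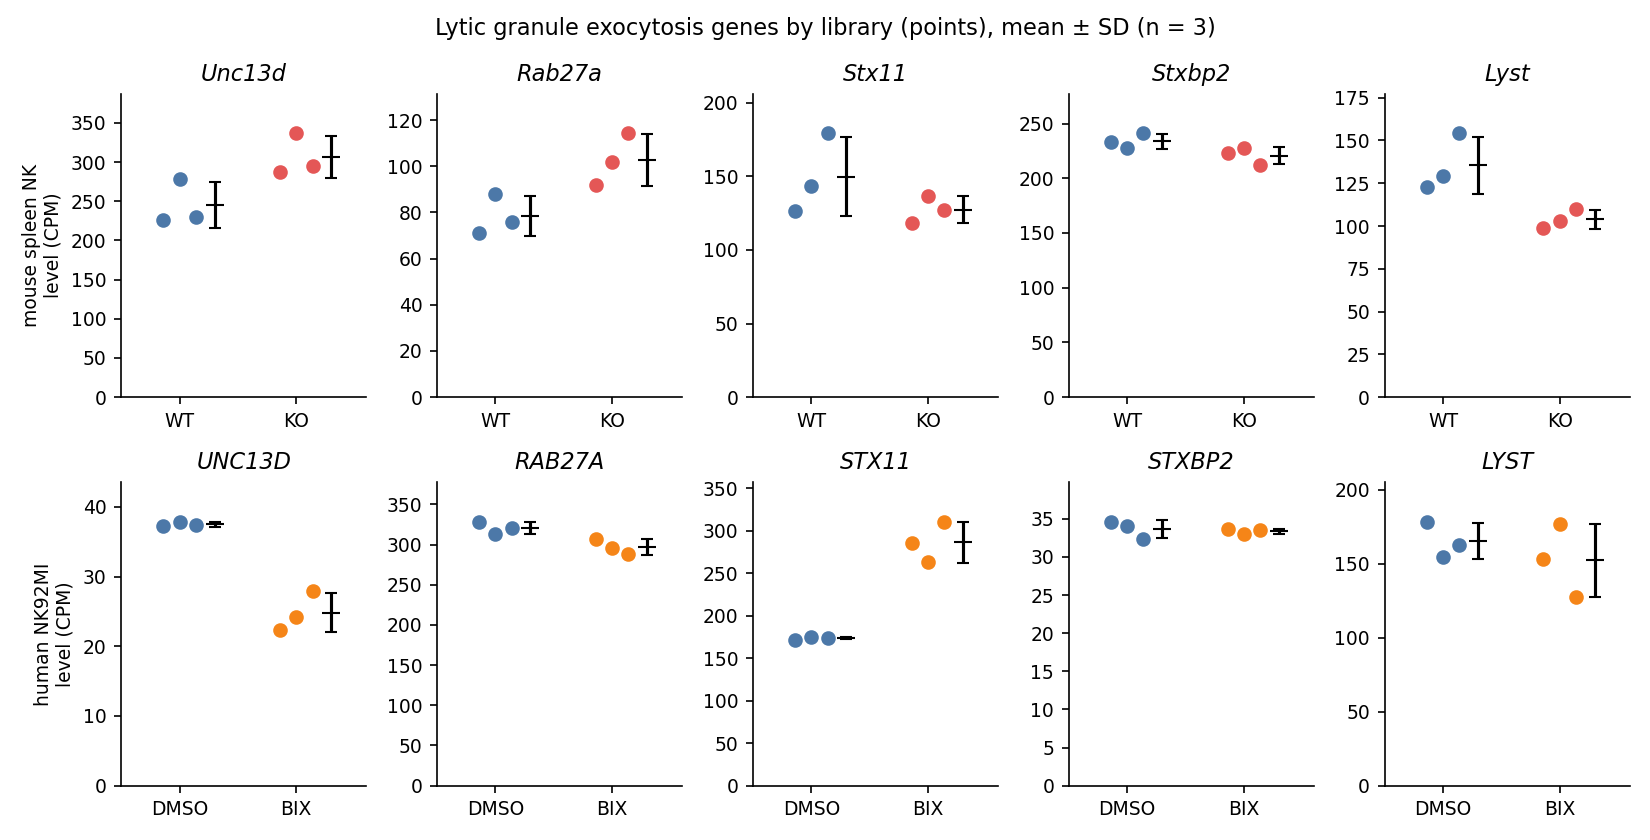
Level in CPM (vertical axis, from 0) of each gene in every library, shown as points by group, with the mean ± SD of 3 libraries beside them, for mouse in the upper row and human in the lower row. UNC13D lies at 22.3 to 27.9 CPM in BIX against 37.2 to 37.9 CPM in DMSO, and STX11 at 263 to 311 CPM against 172 to 175 CPM.

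The share of NK cell transcripts differed between the mouse groups. The summed level of 12 NK markers ran from 5614 to 9534 CPM in WT and from 10751 to 12541 CPM in KO, with all 12 higher and 7 called. These were Ncr1, Klrb1c, Klrk1, Klrd1, Klre1, Il2rb, Itga2, Eomes, Tbx21, Prf1, Nkg7 and Gzma. The paper reports higher Prf1, Il2rb and Tbx21 mRNA in KO NK cells, so the sum is not a neutral measure of NK cell content. WT replicate 2, which had the highest Unc13d and Rab27a of its group, also had the highest NK marker sum. Most lists of other cell types were lower in KO. The macrophage and monocyte list went from 2579–6183 CPM to 1596–2697 CPM (4 of 9 called lower and 1 higher), the neutrophil list went from 160–1373 to 28.6–184 CPM (2 of 7 tested called lower), and the erythroid list from 204–327 to 95.5–126 CPM (5 of 5 called lower). B cell markers stood at 346–1046 CPM in WT and 28.3–310 CPM in KO, platelet markers at 1640–2615 and 1308–1445 CPM, and none of either list was called. T cell markers stood at 147–246 and 95.7–206 CPM (1 of 7 tested called higher), and dendritic cell markers at 982–1317 and 1044–1336 CPM (1 of 5 called lower). Their part in the changes of the 5 genes was not tested. In such bulk samples, fewer cells of a type and less RNA per cell cannot be told apart. When libraries were scaled to the NK marker sum, all 5 genes were lower in KO, Unc13d by -0.49 and Rab27a by -0.43 with adjusted p of 0.0786 and 0.135, and Stx11, Stxbp2 and Lyst by -1.08, -0.93 and -1.23, which passed the test. Of all 13189 genes tested, 8818 were then called lower and 35 higher. This scaling moved the median of all genes tested to -0.82, from 0.014. It shifts all genes by nearly the same amount, so places relative to the median are already set by the fit without it. That Unc13d and Rab27a lay above the median and Lyst below it under either scaling is thus no separate result.

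Ratios between the genes within a library do not depend on scaling. Unc13d over Rab27a was 3.17, 3.17 and 3.03 in WT and 3.13, 3.31 and 2.58 in KO, and the groups overlapped. Unc13d over Lyst was 1.84, 2.16 and 1.49 in WT and 2.91, 3.27 and 2.68 in KO. Rab27a over Lyst was 0.580, 0.682 and 0.493 in WT and 0.929, 0.988 and 1.04 in KO. Groups did not overlap for either ratio to Lyst, and each gave an exact two-sided permutation p of 0.1, again the smallest possible. The same held for the ratios of Unc13d and of Rab27a to Stx11 and to Stxbp2, and for Stxbp2 over Lyst. Stx11 over Lyst overlapped. Stx11 over Stxbp2, the SNARE and its SM partner, was 0.544 to 0.743 in WT and 0.530 to 0.601 in KO and overlapped. All these ratios are built from the same 5 genes, so they are not separate results. How often ratios of other gene pairs separate the groups was not counted.

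In NK92MI cells, BIX moved the 5 genes in different directions. STX11 rose 1.65-fold, UNC13D fell to 0.66 times its DMSO level, and RAB27A, STXBP2 and LYST stood at 0.92, 0.99 and 0.92 times theirs. Thus 2 of the 5 genes were called by the same test, 1 in each direction, beside 36.9% of the 12727 genes tested, 18.4% in each direction. The share called among the 5 genes is near that background. The groups did not overlap for 3 of the 5, UNC13D, STX11 and RAB27A, 1 higher and 2 lower, beside 47.9% of all genes tested, 24.1% higher and 23.9% lower. At the study's thresholds both called genes were still called, beside 11.7% of all genes, by edgeR and by DESeq2.

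STX11 was counted at 172, 175 and 174 CPM in the DMSO libraries and at 285, 263 and 311 CPM in BIX replicates 1 to 3. The DMSO libraries agreed closely, and the lowest BIX library was far above them. The log2 fold change was 0.72 (SE 0.07, 95% interval 0.57 to 0.87, adjusted p = 3.73e-06).

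UNC13D, which encodes the priming factor, stood at 37.2, 37.9 and 37.4 CPM in DMSO and at 22.3, 24.2 and 27.9 CPM in BIX. Between 367 and 648 counts per library lay behind these values. The groups were well apart, with a log2 fold change of -0.60 (SE 0.09, 95% interval -0.80 to -0.39, adjusted p = 0.000284).

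RAB27A, the granule GTPase, stood at 329, 313 and 321 CPM in DMSO and 307, 295 and 288 CPM in BIX. The BIX libraries were all below the DMSO libraries. Even so the log2 fold change was only -0.11 (SE 0.06, 95% interval -0.24 to 0.015, adjusted p = 0.156).

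STXBP2 was at 34.6, 34.0 and 32.4 CPM in DMSO and 33.6, 33.0 and 33.5 CPM in BIX, which overlapped. Its log2 fold change of -0.014 had a 95% interval of -0.19 to 0.16 (adjusted p = 0.910). The syntaxin thus rose without a change of its SM partner that passed the test, and STX11 over STXBP2 went from 4.96, 5.14 and 5.37 in DMSO to 8.49, 7.98 and 9.28 in BIX.

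LYST was the most variable of the 5 genes, at 178, 155 and 162 CPM in DMSO and 153, 177 and 127 CPM in BIX. The groups overlapped, and the log2 fold change was -0.12 (SE 0.10, 95% interval -0.33 to 0.10, adjusted p = 0.391). Single libraries moved this value. Without BIX replicate 2 it was -0.23 and passed the test (adjusted p = 0.0264), and without BIX replicate 3 it was 0.0034.

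The ratio of the priming factor to the syntaxin, UNC13D over STX11, went from 0.216, 0.217 and 0.215 in DMSO to 0.0783, 0.0918 and 0.0897 in BIX. UNC13D over RAB27A went from 0.113, 0.121 and 0.116 to 0.0727, 0.0818 and 0.0967. Neither ratio overlapped between groups, and each had an exact two-sided permutation p of 0.1. Here too, ratios of other gene pairs were not counted. Of the 12 human NK markers, 5 were called higher and 5 lower, and their sum ran from 4285 to 4636 CPM in DMSO and from 4752 to 5783 CPM in BIX. Scaled to that sum, the median of all genes moved from -0.0083 to -0.26, STX11 was still called higher (0.46) and UNC13D lower (-0.85), and RAB27A was called lower (-0.36, adjusted p = 0.0161). Of all 12727 genes tested, 654 were then called higher and 4516 lower.

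**Figure D3:**
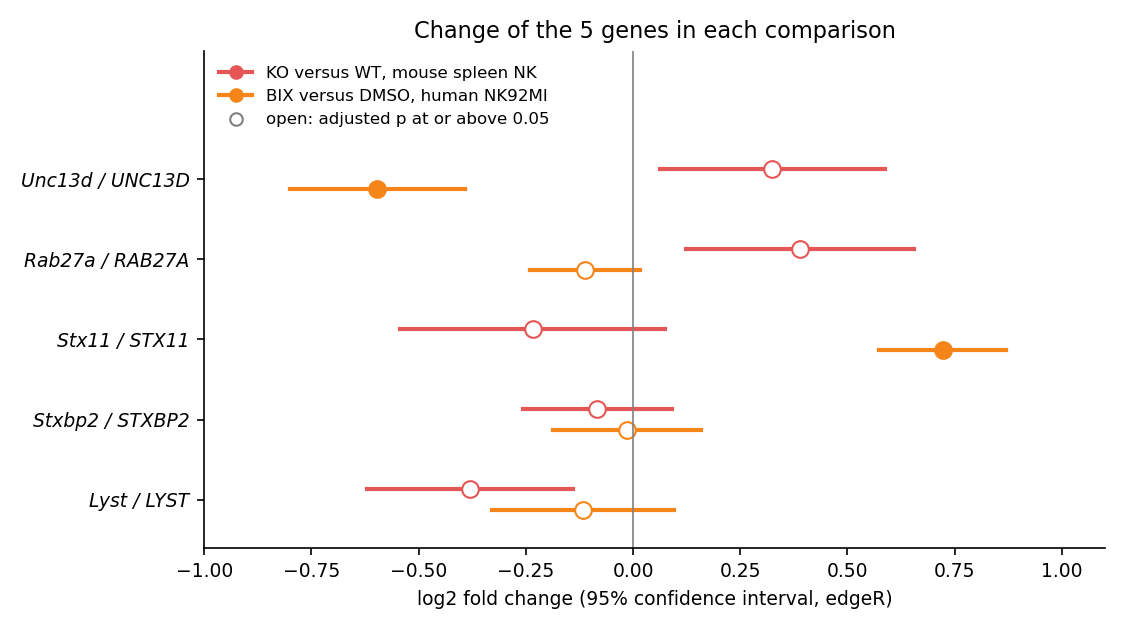
Log2 fold change (horizontal axis) of the 5 genes in KO versus WT mouse NK cells and in BIX versus DMSO NK92MI cells, with bars for the 95% confidence interval and filled points where the adjusted p was under 0.05. Unc13d and Stx11 lie on opposite sides of 0 in the comparisons, at 0.33 against -0.60 and at -0.23 against 0.72.

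Whether a gene answered differently to the knockout and to the inhibitor was tested directly, as the interaction over all 12 libraries on 8785 genes joined by symbol, of which 30.7% were called. The difference (KO effect minus BIX effect) was called for 3 of the 5 genes. It was 0.92 for UNC13D (SE 0.14, adjusted p = 0.000528), 0.50 for RAB27A (SE 0.13, adjusted p = 0.0104) and -0.96 for STX11 (SE 0.16, adjusted p = 0.000663). For STXBP2 it was -0.069 (95% interval -0.27 to 0.13, adjusted p = 0.599) and for LYST -0.26 (95% interval -0.61 to 0.080, adjusted p = 0.227). Species, cell source and the kind of perturbation differ together between the comparisons and cannot be told apart. With both species scaled to their NK markers, the difference stayed called for STX11 (-1.55, adjusted p = 0.000145), was no longer called for UNC13D (0.37, adjusted p = 0.283), changed sign for RAB27A (-0.065, adjusted p = 0.855) and was called for LYST (-0.87, adjusted p = 0.0281).

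The wider machinery around the 5 genes was followed through lists of 85 mouse and 86 human genes, of which 84 and 77 were listed in the tables. In the KO comparison 15 of 76 genes tested were called, 8 higher and 7 lower, which is 19.7% beside 11.9% of all genes. The count rested on single libraries. It was 1 without WT replicate 1, 30 without WT replicate 2, and 0 without WT replicate 3, KO replicate 2 or KO replicate 3. Under the scaling to NK markers it was 55, all lower, beside 35 higher and 8818 lower of all 13189 genes. With all 6 libraries, 37 of the 76 genes had an unadjusted p under 0.05 by edgeR, beside 4719 of all 13189 genes. DESeq2 called 29, beside 3087 of all genes.

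Of the Rab27 and Rab3 GTPases with their effectors, 3 of 10 tested rose in KO libraries and none fell, 30% beside 11.9% of all genes. Sytl2, a synaptotagmin-like protein that binds Rab27 on granules, stood at 51.8, 86.0 and 59.1 CPM in WT and at 101, 121 and 114 CPM in KO, a log2 fold change of 0.77 (SE 0.18, adjusted p = 0.0431). Madd, the exchange factor that loads Rab3 and Rab27 with GTP, rose by 0.51 (adjusted p = 0.0456), and the GTPase Rab3d by 0.40 (adjusted p = 0.0472). Rab27b, the closest relative of Rab27a, was at -0.21 (adjusted p = 0.444). Among the other Munc13 genes, Unc13a stood at 1.59 CPM in WT and 1.84 CPM in KO and Unc13b at 1.37 and 0.660 CPM (adjusted p = 0.701 and 0.109), and no read of Unc13c was counted in any mouse library.

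Of the SNARE and SM genes, 1 of 17 tested was called in KO libraries, 5.88% beside 11.9% of all genes. Snap23, a plasma membrane SNARE, fell by 0.50 (SE 0.12, adjusted p = 0.0449). The syntaxins Stx3 and Stx4a were at -0.12 and 0.10, and the SM protein Stxbp3 at 0.14, none called. Syt11, a synaptotagmin without calcium binding, rose by 0.70 (adjusted p = 0.0338), 1 of 2 tested on its list.

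Granule transport held 2 called genes of 25 tested, both lower in KO, 8% beside 11.9% of all genes. Myo5a, an actin-based organelle motor, fell to 0.50 times its WT level (adjusted p = 0.0247), and Plekhm2, which joins lysosomes to kinesin, fell by 0.51 (adjusted p = 0.0413). Of the BEACH relatives of Lyst, 2 of 7 were called, 28.6% beside 11.9% of all genes. Wdfy3, an autophagy adaptor, fell by 1.63 (adjusted p = 0.0323) and Wdfy4, known for antigen cross-presentation in dendritic cells, by 1.17 (adjusted p = 0.0223). Nbeal2, known for platelet granules, was at 0.59 (adjusted p = 0.0591).

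Granule contents had 6 called genes of 15 tested, 4 higher and 2 lower, 40% beside 11.9% of all genes. Granzyme genes Gzma and Gzmm rose by 0.77 and 1.07, the cathepsin gene Ctsw by 0.93 and the granule membrane gene Nkg7 by 0.83, with adjusted p between 0.0341 and 0.0451. Lamp1, a general lysosomal membrane protein, fell by 0.58 and the protease gene Ctsl by 1.22. Perforin (Prf1) was at 0.72 (adjusted p = 0.0554). Gzma, Nkg7 and Prf1 are also on the NK marker list, which was higher in KO as a whole, and the macrophage list was lower. The median of the whole set of wider genes tested was 0.058, beside 0.014 for all genes.

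In NK92MI cells, 37 of 71 wider genes tested were called under BIX, 22 higher and 15 lower, which is 52.1% beside 36.9% of all genes. Scaled to NK markers, 33 were called, 8 higher and 25 lower, beside 654 higher and 4516 lower of all 12727 genes. The balance of directions thus depends on the scaling.

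Of 18 SNARE and SM genes tested besides the 5 genes, 6 rose and 1 fell under BIX. That is 38.9% called, near the 36.9% of all genes. STX3, a syntaxin that like STX11 also works at the plasma membrane, was at 410, 419 and 411 CPM in DMSO and 592, 616 and 618 CPM in BIX, a log2 fold change of 0.56 (SE 0.06, adjusted p = 7.03e-06). The endosomal syntaxin STX7 rose by 0.50, the plasma membrane syntaxin STX4 by 0.36, STX6 of the trans-Golgi network by 0.33 and SNAP29 by 0.21. The SM protein STXBP3 was at 0.033. VAMP1 fell by 0.32. Under the scaling to NK markers, STX3 was the only gene of this list still called higher (0.31), and 4 were called lower. Of all 12727 genes, 654 were higher and 4516 lower under that scaling.

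Among the Rab27 and Rab3 genes, 2 of 5 tested fell and none rose, 40% called beside 36.9% of all genes. RAB27B fell by 0.67 (SE 0.13, adjusted p = 0.00149), from 12.3–16.2 CPM in DMSO to 8.70–9.99 CPM in BIX, and RAB3A, at 1.31 CPM in DMSO, fell by 1.63 (adjusted p = 0.0154). SYTL2 was at 0.16 (adjusted p = 0.0587) and MADD at -0.067 (adjusted p = 0.502). Of the calcium sensor list, SYT11 rose by 0.22 and ESYT1, a tether between the endoplasmic reticulum and the plasma membrane, fell by 0.32.

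Granule transport genes split, with 5 of 25 tested higher and 7 lower, 48% called beside 36.9% of all genes. The higher genes include BLOC1S6 (0.47) and HPS1 (0.29), which act in the making of lysosome-related organelles, RAB11A (0.28) of recycling endosomes, and CDC42 (0.19). The lower genes include actin regulators, myosins and parts of the dynein motor. CORO1A fell by 0.81, MYH9 by 0.41, WAS by 0.39, DYNC1H1 by 0.33, MYO5A by 0.24, DCTN1 by 0.21 and the adaptor subunit AP3D1 by 0.17. Scaled to NK markers, none of this list was called higher and 11 were called lower, beside 654 higher and 4516 lower of all 12727 genes.

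Of the 5 BEACH relatives tested, 3 fell, NBEAL2 by 0.71, LRBA by 0.35 and NSMAF by 0.26, while LYST itself was not called. WDFY4 rose by 1.65 from 0.682 CPM in DMSO, so 80% of these relatives were called beside 36.9% of all genes. Granule contents rose in 9 of 15 genes tested and fell in 1, 66.7% called. GZMA rose by 0.91, GZMB by 0.89, GZMK by 0.85, the granule proteoglycan SRGN by 0.61, CD63 by 0.60, PRF1 by 0.57, LAMP2 by 0.45, GNLY by 0.43 and NKG7 by 0.28, and FASLG fell by 0.64. Under the scaling to NK markers 6 genes of this list were called higher, PRF1 and GZMB among them, and 2 lower, FASLG among them. Of all 12727 genes tested, 654 were higher and 4516 lower under that scaling. PRF1, GZMB and NKG7 are also on the human NK marker list, so they were scaled to a sum that contains them. Without that scaling, the median of the granule contents was 0.43, while the median of the 5 exocytosis genes was -0.11 and that of all genes -0.0083.

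**Figure D4:**
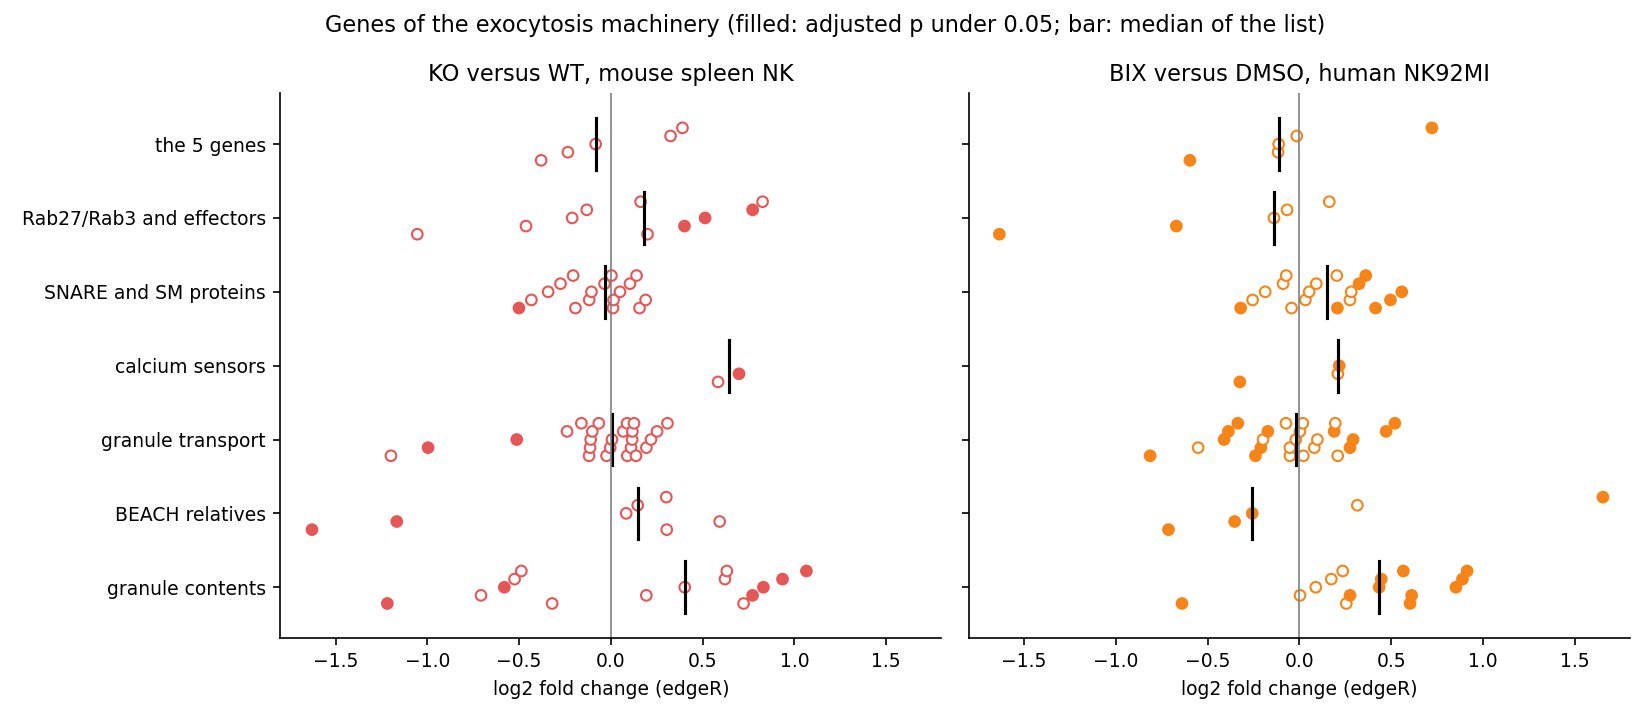
Log2 fold change (horizontal axis) of each gene tested on the 7 lists, in mouse on the left and human on the right, with filled points where the adjusted p was under 0.05 and a bar at the median of each list. Granule contents have a median of 0.40 in mouse and 0.43 in human, whereas the 5 genes have medians of -0.083 and -0.11.

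Across the 6 libraries of a species, the gene most like each of the 5 was found by Pearson correlation of log2 CPM. In mouse, Triobp was most like Unc13d (r = 0.998), Cdk17 most like Rab27a (r = 0.999), Baz2b most like Stx11 (r = 0.991), Lactb most like Stxbp2 (r = 0.989) and Insr most like Lyst (r = 0.995). In human, DNAJA3 was most like UNC13D (r = 0.998), ITGB3BP most like RAB27A (r = 0.988), OCIAD1 most like STX11 (r = 0.999), HSPBAP1 most like STXBP2 (r = 0.954) and UBE4A most like LYST (r = 0.996). With 6 points that share libraries and groups, such values are common. Unc13d had 1076 genes above 0.9 among 9127 compared and STX11 1222 among 8551, whereas STXBP2 had 8.

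With all scalings by all genes, all filters and all tests tried, the log2 fold changes of the 5 genes kept their sign in both comparisons. The exceptions came from the scaling to NK markers for Unc13d and Rab27a and from single libraries left out for STXBP2 and LYST.

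**Figure D5:**
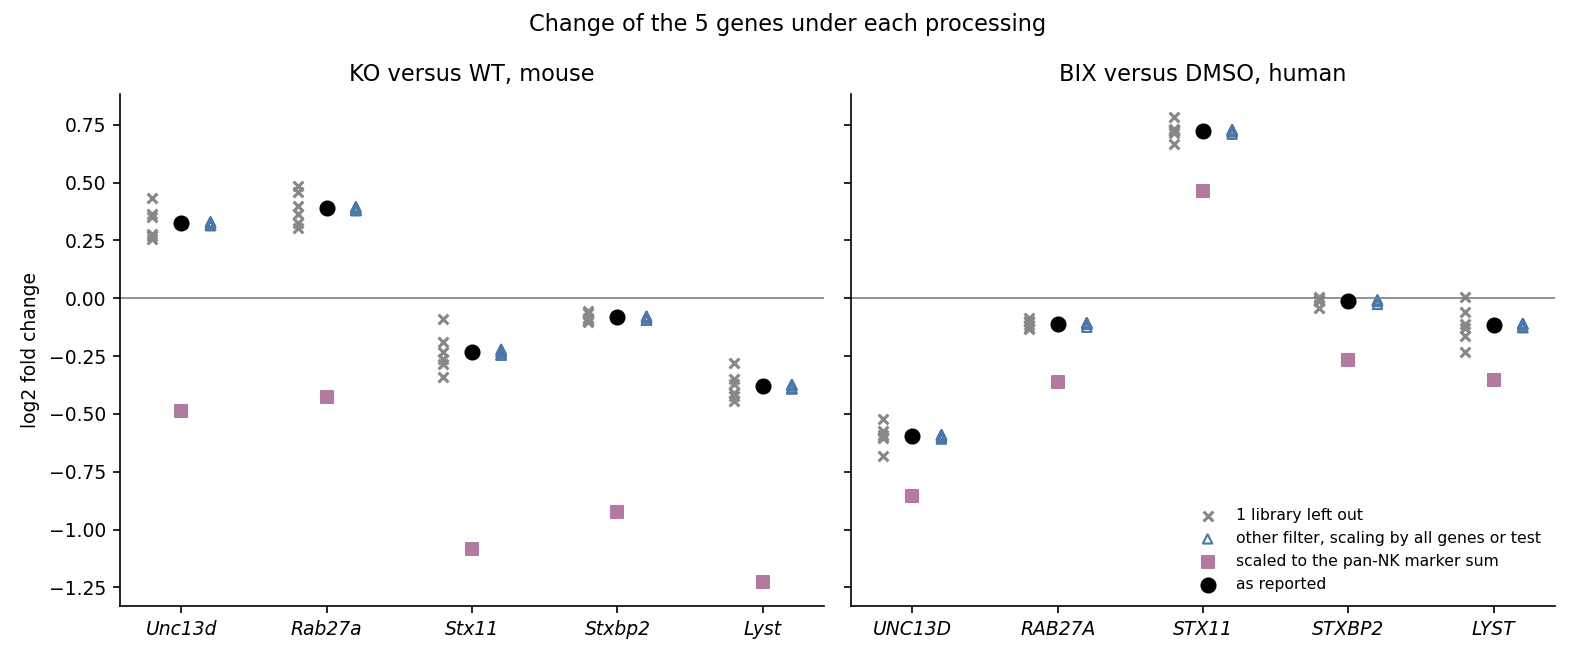
Log2 fold change (vertical axis) of the 5 genes as reported (black), with 1 library left out (crosses), with other filters, scalings by all genes or tests (triangles) and scaled to the NK marker sum (squares). In mouse the squares lie below 0 for all 5 genes, from -0.43 for Rab27a to -1.23 for Lyst, and in human the square of STX11 stays above 0 at 0.46.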

How the data were processed

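RNA-seq was done on polyA RNA of sorted spleen NK cells (3 WT, 3 KO) and NK92MI cells (3 BIX, 3 DMSO). Per the submitters' processing notes, reads were trimmed with fastp 0.23.4, aligned with STAR 2.7.11b to GRCm38 or GRCh38 and counted with HTSeq 2.0.3. The deposited values are raw counts per gene symbol, not normalized by the authors. The annotation release and strand setting are not given in the sources used here. Reads of overlapping genes could therefore be lost or shared.

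Totals were 25891680 to 37438868 counts per mouse library and 16579469 to 17165446 per human library, so counting error is small for the 5 genes (at least 367 counts). Each species was fitted with edgeR 4.0.16 (R 4.3.3) after filterByExpr and TMM. Calls used a Benjamini-Hochberg adjusted p under 0.05 over all genes tested. The study's own thresholds (DESeq2, adjusted p under 0.01 and log2 fold change beyond 0.5) were an alternative. CPM are TMM-scaled. RPKM divide CPM by exon or principal transcript length in GENCODE annotations of the same builds. The interaction used genes joined by symbol. Pairwise counts of replicates differed beyond sampling noise, so none was taken for a duplicate.

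Control columns of the human table are not tied to DMSO sample numbers, so the 3 were used as an unnumbered group. The genes, lists, tests and thresholds were chosen with earlier results of these data known. Named were all 5 genes, paralogs, wider genes that were called, and the genes most alike in pattern. Fits were tested on simulated data. Alternatives covered other scalings, filters and tools (DESeq2 1.42.0, limma 3.58.1), the replicate number as a block, and each library left out. Scaling the human libraries to NK markers, and the interaction with it, were added after seeing the data. Values of some genes on the lists are not reported here, although the list counts include them.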

Additional observations from a re-analysis of the deposited data

Results flagged for a closer look

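For 3 of the 5 genes the response to the knockout in mouse differed from the response to the inhibitor in NK92MI by a direct test, edgeR's interaction over the 12 libraries. The difference in log2 fold change (KO versus WT minus BIX versus DMSO) was 0.92 for UNC13D, 0.50 for RAB27A and -0.96 for STX11, beside 30.7% of all joined genes that passed the same test. Leaving out each library in turn gave 0.85 to 1.03 for UNC13D, 0.42 to 0.60 for RAB27A and -1.06 to -0.81 for STX11, with adjusted p of at most 0.0285 by the same edgeR test. Scaled to NK markers in both species, the difference was 0.37 for UNC13D (adjusted p = 0.283) and -0.065 for RAB27A (adjusted p = 0.855), so neither was called, and -1.55 for STX11 (adjusted p = 0.000145). Groups of 3 libraries were too small for a test of single outlying libraries.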

How the results depend on the processing

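None of the 5 genes was called in KO versus WT with DESeq2's size factors, library totals, no filter, limma-voom or the study's thresholds. With genes of a mean CPM of at least 1 the count was 1 (Lyst), with DESeq2 2, with the scaling to NK markers 3 (all lower), and with a library left out 0 to 3. It was 3 without WT replicate 2 (Unc13d, Rab27a and Lyst) and 1 without KO replicate 1 (Rab27a). The wider genes called, 15, became 29 with DESeq2, 55 with NK marker scaling, 0 at the study's thresholds by edgeR, 21 at those thresholds by DESeq2 (12 higher, 9 lower) and 0 to 30 with a library left out. All genes called, 1565, became 3087, 8853, 0, 1495 and 0 to 3530 in the same order. For BIX versus DMSO, the study's thresholds left 13 (edgeR) or 14 (DESeq2) of 37 wider genes and 1485 or 1484 of 4692 genes, with UNC13D and STX11 called under every alternative tried. Signs reversed for Unc13d (-0.49) and Rab27a (-0.43) with NK marker scaling, for the RAB27A difference (-0.065) with that scaling in both species, for STXBP2 without DMSO library 1 (0.0048; range with a library left out -0.043 to 0.0048) and for LYST without BIX replicate 3 (0.0034; range -0.23 to 0.0034). The cause of these changes was not tested.

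The labels do not say whether replicate numbers pair the mouse samples, and 3 libraries per group are too few to decide it. Deviations of same-numbered libraries correlated at 0.28, 0.35 and -0.19. Only WT replicate 2 and KO replicate 2 correlated best with their own number on both sides. With the replicate block, 3 of the 5 genes (Unc13d and Rab27a higher, Lyst lower), 31 wider genes and 3222 genes were called. No paired analysis was possible for BIX versus DMSO because the control columns carry no numbers.

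The biological coefficient of variation was 18.2% in mouse and 7.55% in human. How far depth or spread between libraries limited the calls was not tested.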
